A study of Mus musculus with 4 samples.

Results

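A set of 28 genes of enteric neurons, enteric glia and the pacemaker cells of the gut wall were followed across 4 RNA samples of wild-type C57/BL6 mice. The genes were taken by name from the array design, with every probe that carries the name: 28 of 30163 named genes, read by 33 probes on 42 spots. Of the 28 genes, 24 had 1 probe and 4 had several.

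RNA of each sample was hybridised to its own 1-colour Agilent array, all 4 on the same slide. The samples were whole intestine, isolated crypt (the epithelial pits that hold the stem cells), and 2 samples of crypt-villus organoids, labelled y-organoid and o-organoid. Such organoids grow from epithelium in a dish. The meaning of y and o and the age and number of animals are not given in the sources used here. All samples share the strain and carry no allele or treatment in the labels. The o-organoid RNA was labelled from 40 ng and the others from 20 ng. The study as titled is about non-neuronal acetylcholine and stem cells of the gut.

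The enteric nervous system lies in the wall of the gut, in plexuses between and beneath the muscle layers, with fibres that reach up to the crypts and villi. Its neurons signal with acetylcholine, nitric oxide and peptides such as vasoactive intestinal peptide, galanin, neuropeptide Y and the tachykinins, and glia surround the nerve cell bodies and fibres. Interstitial cells of Cajal, which carry the receptor Kit and the chloride channel Ano1, set the slow-wave rhythm of the muscle. Several of these transcripts are not confined to nerve: enteroendocrine cells of the epithelium, which release hormones, also make synaptic and secretory proteins, and mast cells carry Kit. Cultured crypt epithelium has no nerve cells of its own.

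Several kinds of sequence bear on how the values below can be read: oligonucleotides on the array that match coding sequence, oligonucleotides with a simple repeat, and start-site regions of transmitter genes. The first pair are the whole 60-base probes for Npy and Prph, shown as examples of probes without a long repeat that were bright on the intestine array alone.
Npy: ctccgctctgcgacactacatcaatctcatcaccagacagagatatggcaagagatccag
Prph: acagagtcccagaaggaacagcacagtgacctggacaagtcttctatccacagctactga
The Npy probe maps to chr6:49773743-49777505 in build mm9, 3763 bases, so its target is split by intron sequence. The Prph probe maps to chr15:98889042-98889101. The next pair are 30-base stretches of the probes for Snap25 (bases 1 to 30 of the probe) and Elavl4 (bases 26 to 55), with the longest CA or TG run in capitals.
Snap25: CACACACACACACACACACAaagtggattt
Elavl4: tctgtTGTGTGTGTGtatgtgtacatataa
The Snap25 probe opens with a CA run of 20 bases, whereas the run in this Elavl4 probe is 10 bases long. No other probe of the 28 genes held a CA or TG run above 6 bases.

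A signal is given below as log2 of the processed intensity relative to the 75th percentile of its array, so that 0 marks that percentile. A probe is called measured where the scanner software marked it as well above background. Where 1 side of a difference was not measured, its value is a bound, written as at least N-fold. For the dim side, the lowest signal of any measured probe on that array was used, or the probe's own signal where that was higher. This floor lay at -4.48 for intestine, -4.52 for crypt, -4.20 for y-organoid and -5.00 for o-organoid, so the same bright signal gives a larger bound against o-organoid. Differences are counted from 2-fold, or 1 in log2 units. No sample has a replicate, so no test, standard error or p-value is given and each difference compares 2 arrays. Repeated spots of the same probe had a root-mean-square SD of 0.225 to 0.282 on an array, and of 0.307 to 0.38 for signals below -2, which leaves out labelling and hybridisation.

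Whole intestine gave a measured signal for 22 of the 28 genes, crypt for 8, y-organoid for 10 and o-organoid for 13. Over all genes the shares were 58.9%, 52.2%, 54.3% and 54.9%. Only on the intestine array was the share of the 28 genes above that of all genes. Of these genes 10, Vip, Npy, Dbh, Prph, Stmn2, Gap43, Uchl1, Syt1, Ednrb and Hand2, were measured on the intestine array alone, a pattern held by 5.43% of all genes. Another 8, Gal, Tac1, Scg2, Th, Snap25, Sox10, Kit and Ano1, were measured on all 4 arrays (48% of all genes). Elavl4, Tubb3 and Ret were measured on intestine and o-organoid (0.646% of all genes), and S100b on intestine and both organoids (1.58%). Nefm was measured on both organoids only (1.36%). Nos1, Nefl, Calb2, Chrna3 and Gfap were well above background nowhere, a pattern held by 35.4% of all genes.

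**Figure D1:**
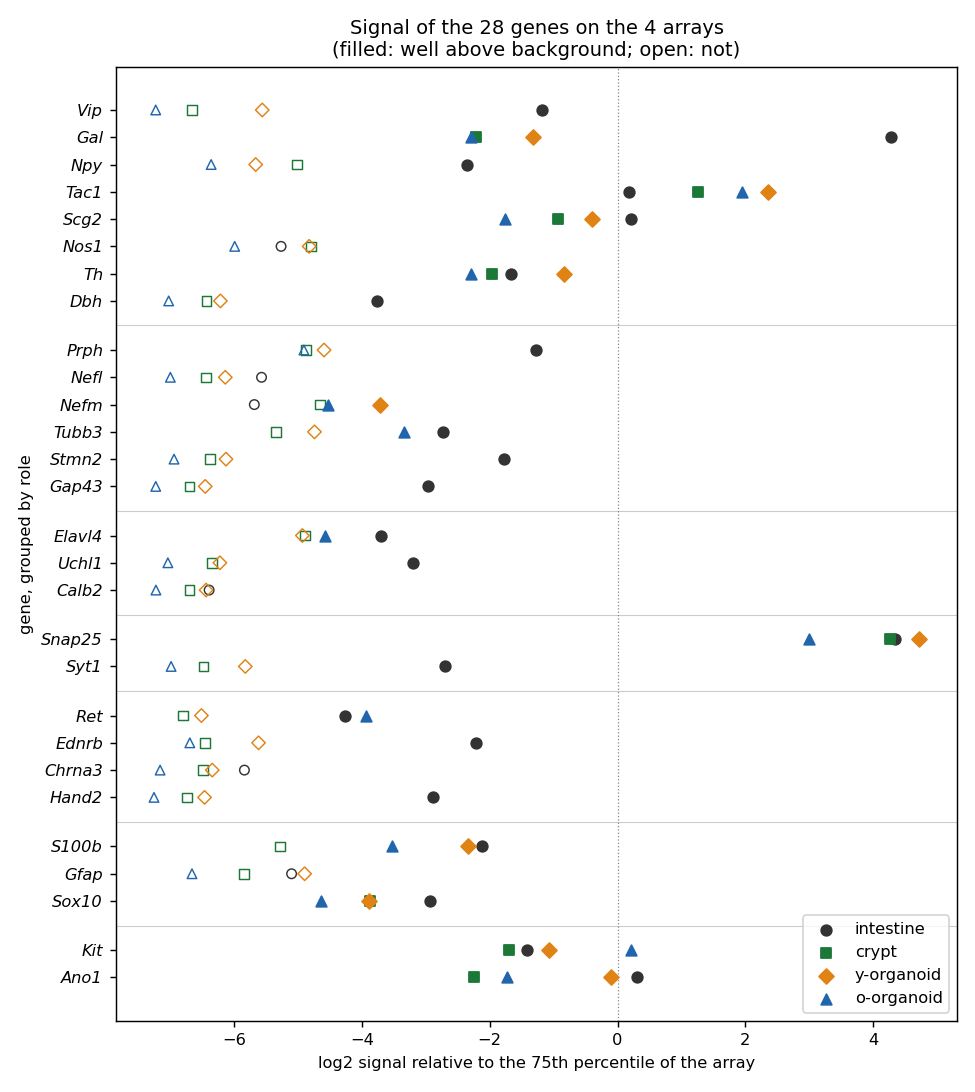
Log2 signal of each of the 28 genes (horizontal axis, relative to the 75th percentile of the array) on the 4 arrays, grouped by role; filled symbols are well above background and open symbols are not. In all 10 genes have a filled symbol for intestine only, whereas Tac1 is highest on y-organoid and Kit on o-organoid.

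Each epithelial array was set against whole intestine. On the crypt array 14 of the 22 genes measured on either side were at least 2-fold lower, against 14.3% of all genes, and 1, Tac1, was higher, against 6.83%. On the y-organoid array 11 of 23 were lower (19.3% of all genes) and 1 was higher (20.6%). On the o-organoid array 16 of 23 were lower (24.2% of all genes) and 2, Tac1 and Kit, were higher (16.1%). With the deposited scaling, which lifts the median of all genes for o-organoid minus intestine to 0.80, 11 were lower and 3 higher there. All genes then had 2489 lower and 7931 higher of 18828. Centring on epithelial genes gave 9 lower and 3 higher for y-organoid, where all genes had 2880 lower and 5779 higher of 18760. With normexp background correction 8 genes were lower on crypt (1594 of 18212 of all genes) and 3 on y-organoid (2405 of 18758). On y-organoid the count of the 28 genes was then near that of genes in general. The genes under 2-fold on y-organoid with normexp were Npy (-0.54), Tubb3 (-0.22), Stmn2, Gap43, Uchl1, Syt1 (-0.23), Ednrb and Hand2, and on crypt Tubb3 and Syt1 were each at -0.75. For o-organoid, Dbh was at -0.33 with quantile normalization. The medians were -1.60, -0.98 and -1.89, and those of all genes 0.06, 0.17 and -0.06. A gene measured on intestine alone can only differ downward, so these counts partly restate the pattern of detection. The 3 comparisons share the intestine array and are not independent. In RNA from whole tissue, fewer cells of a type and less RNA per cell cannot be told apart.

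**Figure D2:**
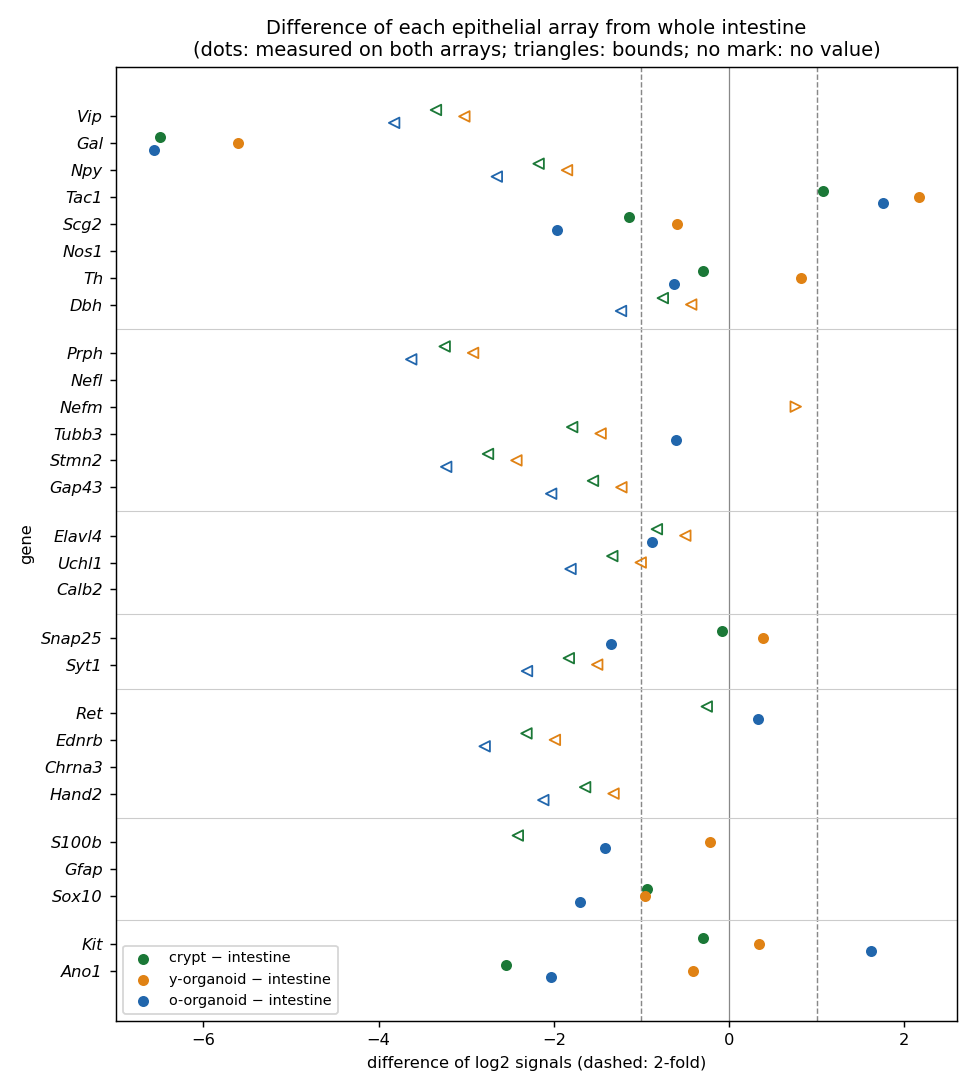
Difference of log2 signals between each epithelial array and whole intestine for each gene; dots were measured on both arrays, open triangles are bounds that point toward the larger difference, and dashed lines mark 2-fold. Gal lies furthest left of the dots on all 3 arrays, and Tac1 is right of 2-fold on all 3.

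Among the peptide genes, Gal showed the widest measured difference. Gal encodes galanin, a peptide of enteric neurons, and its probe (chr19:3411143-3411202, mm9) read a processed intensity of 7474 on the intestine array. It read 101 on the crypt, 112 on the y-organoid and 131 on the o-organoid array. Intestine stood far above the other 3, which lay close together. As signals these were 4.27, -2.22, -1.33 and -2.29, and Gal was 90.2-fold lower on the crypt, 48.6-fold lower on the y-organoid and 94.6-fold lower on the o-organoid array. The low signals were still well above background on each of these arrays.

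Vip, which encodes vasoactive intestinal peptide, a transmitter of secretomotor and inhibitory neurons, had an intensity of 171 on the intestine array and of 4.64, 5.97 and 4.29 on the crypt, y-organoid and o-organoid arrays. Only intestine was above background, and Vip was at least 10.2-fold lower on the crypt, 8.12-fold on the y-organoid and 14.1-fold on the o-organoid array. Its probe lies at chr10:4699238-4699297 (mm9). Npy, the gene of neuropeptide Y, had signals of -2.35 on intestine and, not well above background, -5.02, -5.66 and -6.36 on crypt, y-organoid and o-organoid. The bounds for Npy were at least 4.51-, 3.6- and 6.28-fold lower.

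Tac1 ran the other way. It encodes substance P and neurokinin A, which excitatory enteric neurons release and which enterochromaffin cells of the epithelium also make. Its intensities were 439 on intestine, 1125 on crypt, 1441 on y-organoid and 2478 on o-organoid, as signals 0.19, 1.26, 2.36 and 1.95. Tac1 was lowest on the intestine array and highest on the organoid arrays. It was 2.11-fold higher on crypt, 4.50-fold on y-organoid and 3.39-fold on o-organoid than on intestine. The log2 difference between crypt and intestine was under 2-fold in 3 of the 11 alternative settings: 0.92 with normexp background correction, 0.96 with quantile normalization and 0.66 when arrays were centred on 8 epithelial genes. The tachykinin receptor genes Tacr1 and Tacr3 were not well above background on any array. The probe for Tacr2 is 1 of those with a long CA run described with Snap25, and its values are given there.

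Scg2 encodes secretogranin II, a protein of dense-core granules in neurons and endocrine cells. Its signals were 0.21 on intestine, -0.94 on crypt, -0.39 on y-organoid and -1.76 on o-organoid. Intestine was highest, and Scg2 was 2.21-fold lower on crypt, 1.51-fold lower on y-organoid and 3.91-fold lower on o-organoid. With the deposited scaling the crypt difference was -0.40, so that call rests on the scaling.

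The enzymes of transmitter synthesis differed among themselves. Th, tyrosine hydroxylase, the first step of catecholamine synthesis, had intensities of 122, 121, 157 and 131 on intestine, crypt, y-organoid and o-organoid. These lie close together, with y-organoid highest after scaling (signals -1.66, -1.96, -0.84 and -2.29). Dbh, dopamine beta-hydroxylase, which turns dopamine into noradrenaline, was measured on intestine alone (-3.77) and was at least 1.69-fold lower on crypt, 1.35-fold on y-organoid and 2.35-fold on o-organoid. Nos1, neuronal nitric oxide synthase, has 2 probes, and neither was above background on any array. A dim Nos1 probe says only that this transcript could not be seen at this sensitivity.

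The start-site regions of 5 of these transmitter genes are shown because the cyclic AMP response element is a known regulatory element of neuropeptide and transmitter genes, while these genes differed in pattern across the arrays. Each line gives the 120 bases before the start site from RefSeq on GRCm38.p6. Capitals mark matches to the searched motifs, on either strand, that lie wholly within these bases.
Scg2: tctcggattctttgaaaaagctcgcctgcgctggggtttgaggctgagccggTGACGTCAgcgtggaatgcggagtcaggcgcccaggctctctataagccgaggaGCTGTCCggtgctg
Th: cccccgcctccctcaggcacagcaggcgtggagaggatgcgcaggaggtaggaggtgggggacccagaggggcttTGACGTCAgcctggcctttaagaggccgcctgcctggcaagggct
Vip: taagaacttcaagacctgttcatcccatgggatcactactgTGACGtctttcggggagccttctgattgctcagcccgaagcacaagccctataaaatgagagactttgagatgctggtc
Tac1: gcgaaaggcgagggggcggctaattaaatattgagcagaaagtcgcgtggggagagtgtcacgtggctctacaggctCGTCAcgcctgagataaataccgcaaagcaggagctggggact
Gal: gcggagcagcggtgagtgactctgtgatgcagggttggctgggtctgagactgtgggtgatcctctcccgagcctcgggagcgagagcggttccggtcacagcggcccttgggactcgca
The windows are chr1:79440027-79440146 (minus strand) for Scg2, chr7:142899996-142900115 (minus) for Th and chr10:5639098-5639217 (plus) for Vip. Those of Tac1 and Gal are chr6:7554941-7555060 (plus) and chr19:3414545-3414664 (minus). The promoter table held 20 of the 28 genes, and its whole windows, which also run past the start site, were searched on both strands. The full element TGACGTCA was found in Scg2 at position -68 from the start and in Th at -45, and in 2.03% of all genes in the table. Its half-site TGACG, which the full element contains, was found in 10 of the 20 genes, among them Vip, Tac1 and Gal (for Gal after the start site, outside the bases shown), and in 23.0% of all genes. The letters TTCAGCACC and GGACAGC are the left and right arms of the RE1 element bound by the neuronal repressor REST. In Scg2 both stood on the opposite strand, at -7 and -14 from the start, with no base between them. The TTCAGCACC match crosses the start site, so its part in the line above is in lower case. TTCAGCACC was found in Scg2 only of the 20 genes and in 0.433% of all genes, and GGACAGC also in Vip and Tubb3 and in 7.59%. These are matches of letters, not measured binding, and whether arms so placed form an RE1 was not tested.

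Of the 6 genes of the neuronal cytoskeleton and of axon growth, 3 were measured on intestine alone. Prph encodes peripherin, an intermediate filament of peripheral neurons, with signals of -1.28 on intestine and, not above background, -4.87, -4.59 and -4.91 on crypt, y-organoid and o-organoid. It was at least 9.49-, 7.58- and 12.4-fold lower there. Stmn2, a tubulin-binding protein of growing axons, had -1.77 on intestine against -6.38, -6.12 and -6.94, and was at least 6.73-, 5.38- and 9.37-fold lower. Gap43, a protein of growth cones, had -2.97 on intestine and was at least 2.93-, 2.34- and 4.08-fold lower. For Gap43 the log2 bounds on crypt and y-organoid were -0.81 with the deposited scaling and -0.29 with normexp, under 2-fold. The Stmn2 bound on y-organoid was -0.69 with normexp.

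Tubb3, neuronal beta-III tubulin, departed from this pattern on one array. Its intensities were 58.0 on intestine, 11.5 on crypt, 10.5 on y-organoid and 63.2 on o-organoid, and the low pair was not above background. Intestine and o-organoid lay within 2-fold of each other (a difference of -0.61), whereas crypt was at least 3.46-fold and y-organoid at least 2.76-fold below intestine. Tubb3 was at least 2.27-fold higher on o-organoid than on crypt, and the log2 difference was 0.23 with normexp background correction. Nefl, the light neurofilament chain, was above background nowhere.

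Nefm, the medium neurofilament chain, is the one gene of the set with 10 spots on each array. None of its spots was above background on intestine, 4 of 10 were on crypt, 8 of 10 on y-organoid and 10 of 10 on o-organoid. Its mean signals were -5.68 ± 0.58, -4.66 ± 0.59, -3.72 ± 0.23 and -4.53 ± 0.14 (SD over 10 spots of the same probe). Nefm was thus measured on both organoid arrays, and on intestine and crypt its level is known only as below the limit. The bound for y-organoid over intestine was at least 1.70-fold. For o-organoid over intestine no bound above 1 was available, and crypt counts as measured only where any single spot suffices.

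Among genes for RNA binding, protein turnover and calcium binding, Uchl1, a deubiquitinase abundant in neurons, was measured on intestine alone (-3.19) and was at least 2.52-, 2.01- and 3.50-fold lower on crypt, y-organoid and o-organoid. These calls were kept in 8, 7 and 8 of 11 alternatives, and with normexp the log2 bounds were -0.59, -0.06 and -0.92. Its probe is split over chr5:67073886-67074977 (mm9). Elavl4, the neuronal RNA-binding protein HuD, was read by the probe with the TG run of 10 bases printed above. That probe had intensities of 29.7 on intestine, 15.8 on crypt, 9.22 on y-organoid and 26.9 on o-organoid, and only the first and the last were above background. The other Elavl4 probe was above background on no array, so the probes disagree and the Elavl4 value is uncertain. Calb2, calretinin, a calcium-binding protein of many enteric neurons, was above background nowhere.

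Snap25 and Syt1 act together at nerve endings: the SNARE protein Snap25 drives vesicle fusion, and Syt1, synaptotagmin, is its calcium sensor. The Snap25 probe (chr2:136607709-136607768, mm9) read intensities of 7794 on intestine, 8981 on crypt, 7402 on y-organoid and 5099 on o-organoid. Syt1, by contrast, had signals of -2.70 on intestine and -6.48, -5.82 and -6.98, none above background, on crypt, y-organoid and o-organoid. Syt1 was thus at least 3.55-, 2.84- and 4.94-fold lower there, while the Snap25 probe differed from intestine by -0.08, 0.38 and -1.34.

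The Snap25 values ran alongside those of other probes with the same repeat. All 26 probes on the array with a CA run of 18 bases or more, Snap25 included, were well above background on all 4 arrays, as were all 61 with such a TG run, against 46.8% of all 39429 probes. The highest and lowest signals of a probe over the 4 arrays differed by 1.59 to 2.10 for CA-run probes, and by 0.24 to 1.49 for TG-run probes. The median CA-run probe differed from intestine by -0.12 on crypt, 0.55 on y-organoid and -1.32 on o-organoid, and o-organoid differed from y-organoid by -1.75 (Snap25 -1.73). The Snap25 probe thus moved across the arrays as the median CA-run probe did. The Tacr2 probe, another of the 26, had signals of 4.04, 4.12, 4.71 and 2.82 on intestine, crypt, y-organoid and o-organoid. Whether these probes read Snap25 or Tacr2 mRNA was not tested.

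**Figure D3:**
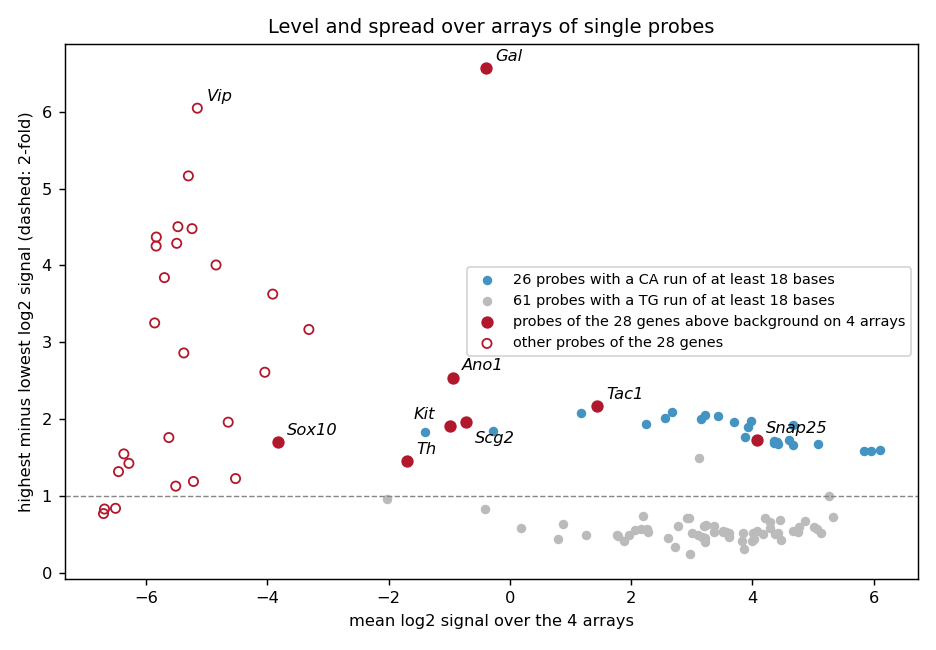
Mean log2 signal over the 4 arrays (horizontal axis) against the gap between the highest and the lowest array (vertical axis) for the 33 probes of the 28 genes and for 87 probes with a CA or TG run of at least 18 bases. Snap25 lies within the cloud of the 26 CA-run probes, whose gaps span 1.59 to 2.10, whereas Gal and Vip have the widest gaps.

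Receptors and transcription factors of the enteric lineage were next. Ret is the receptor tyrosine kinase through which GDNF guides and maintains enteric neurons. Its intensities were 20.0 on intestine, 4.22 on crypt, 3.08 on y-organoid and 41.9 on o-organoid. Intestine and o-organoid were above background and crypt and y-organoid were not. Ret on o-organoid was 1.26-fold higher than on intestine and at least 1.51-fold higher than on crypt, while against y-organoid the bound was 1.20-fold. On intestine the Ret signal (-4.27) lay near the lowest measured signal of -4.48, whereas on o-organoid it was -3.93 against -5.00.

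Ednrb, the endothelin receptor that neural crest cells need to colonise the gut, was measured on intestine alone with both of its probes (intensities 83.3 and 67.1). It was at least 4.97-, 3.97- and 6.91-fold lower on crypt, y-organoid and o-organoid. Hand2, a transcription factor of enteric neurons that gut mesenchyme also carries, had -2.88 on intestine and was at least 3.12-, 2.49- and 4.35-fold lower. With normexp the y-organoid bounds of Ednrb and Hand2 were -0.54 and -0.30 on the log2 scale, and the crypt bound of Hand2 was -0.82. Chrna3, the nicotinic receptor subunit of ganglionic transmission, was above background nowhere.

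Of the glial genes, S100b and Sox10 did not share a pattern, and Gfap, the glial filament, was not above background with any of its 3 probes. S100b, a calcium-binding protein of glia, had intensities of 89.2 on intestine, 12.1 on crypt, 55.8 on y-organoid and 55.4 on o-organoid, with crypt alone below background. It was at least 5.32-fold lower on crypt than on intestine, but on y-organoid it lay within 2-fold of intestine (a difference of -0.22). On o-organoid S100b was 2.67-fold lower than on intestine, and with the deposited scaling the log2 difference was -0.55. Sox10, the transcription factor that specifies neural crest and glia, was measured on all 4 arrays with signals of -2.93, -3.87, -3.88 and -4.63. Intestine was highest, and o-organoid was 3.26-fold lower, crypt 1.92-fold lower and y-organoid 1.94-fold lower. In 3 alternatives the o-organoid difference did not reach 2-fold: -0.84 with the deposited scaling, -0.85 after quantile normalization and -0.86 after normexp.

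The pacemaker genes differed from each other too. Kit, the receptor for stem cell factor, had intensities of 145 on intestine, 144 on crypt, 134 on y-organoid and 739 on o-organoid, as signals -1.41, -1.70, -1.07 and 0.20. The o-organoid array stood apart and the other 3 lay together. Kit on o-organoid was 3.06-fold higher than on intestine, 3.76-fold higher than on crypt and 2.42-fold higher than on y-organoid. All 3 differences stayed past 2-fold in each alternative processing. Kit has a single probe, at chr5:76052394-76052453 (mm9).

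Ano1, a calcium-activated chloride channel of pacemaker cells and of secretory epithelia, had signals of 0.30 on intestine, -2.24 on crypt, -0.11 on y-organoid and -1.73 on o-organoid. Intestine and y-organoid lay together above crypt and o-organoid. Ano1 was 5.82-fold lower on crypt and 4.10-fold lower on o-organoid than on intestine, but only 1.33-fold lower on y-organoid. Thus Kit was highest on o-organoid, and of the organoids Ano1 was higher on y-organoid.

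The organoids were then set against crypt and against each other. On y-organoid 4 of 10 measured genes were at least 2-fold higher than on crypt (18.5% of all genes), namely S100b (at least 4.57-fold), Ano1 (4.38-fold), Th (2.18-fold) and Tac1 (2.14-fold). None was 2-fold lower (13.3% of all genes). The Th and Tac1 differences dropped to 0.61 and 0.58 on the log2 scale with the deposited scaling. Centring on epithelial genes, by contrast, gave 9 genes higher and 0 lower on y-organoid than on crypt. All genes shifted too in that setting, with 7773 higher and 1004 lower of 17206. On o-organoid 2 of 13 were higher than on crypt (8.52% of all genes), Kit and Tubb3, and 1 was lower (13.6%), the Snap25 probe described above. Centring on epithelial genes gave 5 higher and 0 lower, where all genes had 3641 higher and 1292 lower of 17209.

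Between the organoids, 1 of 13 genes was at least 2-fold higher on o-organoid (8.1% of all genes), Kit, and 5 were lower (19.3%). The lower genes were Ano1 (3.09-fold), Th (2.75-fold), Scg2 (2.58-fold), S100b (2.30-fold) and the Snap25 probe (3.31-fold). This split depends on the scaling: with the deposited scaling 2 genes were higher and 1 was lower, and Ano1, Th, Scg2 and S100b were then all within 2-fold. All genes moved likewise in that setting, to 4364 higher and 1108 lower of 17306. Only the Kit difference kept its size past 2-fold in all 11 alternatives. The Snap25 difference did so in 9, at -1.09 or further from 0, and the alternatives without CA or TG runs leave its probe out. The medians over measured genes were 0.85 for y-organoid minus crypt, 0.51 for o-organoid minus crypt and -0.88 between the organoids, against 0.16, -0.01 and -0.19 for all genes. The o-organoid minus crypt median has no settled direction: it was 0.12 with the deposited scaling, -0.05 with the looser mark of a positive spot and -0.52 with no filter on dim probes. The median between the organoids was -0.17 with the deposited scaling, against 0.43 for all genes.

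**Figure D4:**
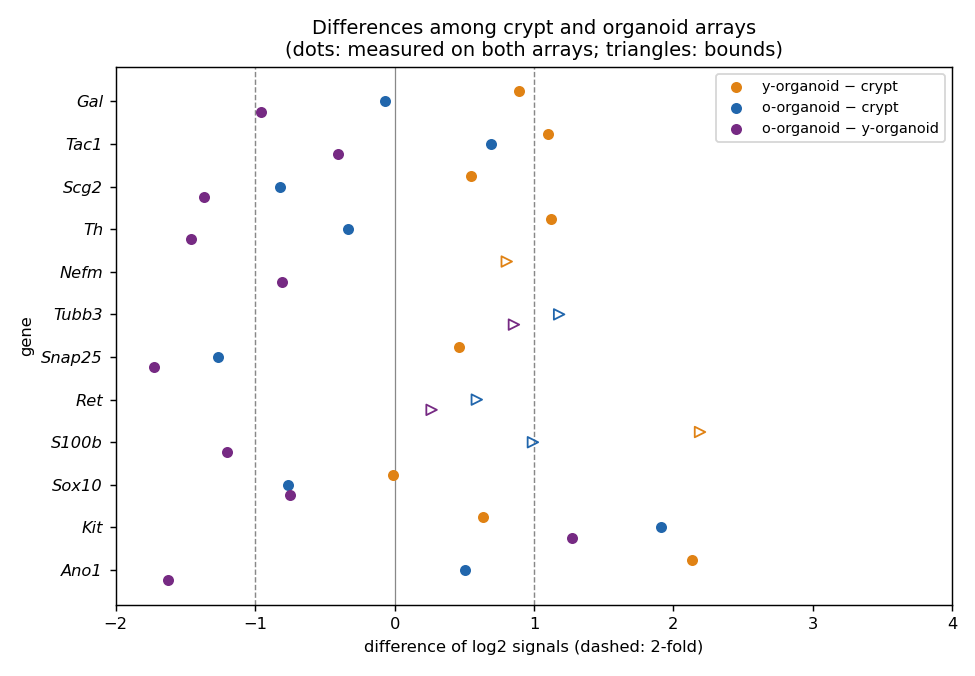
Differences of log2 signals among the crypt and organoid arrays for the genes measured on at least 1 of them; dots were measured on both arrays, triangles are bounds and dashed lines mark 2-fold. Kit lies beyond 2-fold for o-organoid against both other arrays, and S100b and Ano1 lie beyond 2-fold for y-organoid against crypt.

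Ligands and receptors that pair with these genes were read next. In the list of GDNF and endothelin signalling, 4 of 8 measured genes were at least 2-fold lower on crypt than on intestine and 1 was higher, against 14.3% and 6.83% of all genes. Gdnf, the Ret ligand made by gut mesenchyme, was measured on intestine alone (-2.96) and was at least 2.96-fold lower on crypt. Gfra2, the co-receptor for neurturin, was likewise measured on intestine alone (-1.93, at least 6.06-fold lower on crypt). Nrtn, neurturin itself, was measured on all 4 arrays with signals of 1.51, 2.03, 3.50 and 2.45, and was 2.77-fold higher on y-organoid than on crypt. Ednra, the other endothelin receptor, was at least 11.5-fold lower on crypt than on intestine.

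Of the receptors for the peptides, Vipr2, a VIP receptor of smooth muscle, was measured on intestine alone (-1.29) and was at least 9.44-fold lower on crypt. Vipr1, the VIP receptor of epithelium, had signals of 4.98 on intestine, 4.99 on crypt, 0.43 on y-organoid and 1.47 on o-organoid. Intestine and crypt were alike and both organoids were far below them. Vipr1 was 23.6-fold lower on y-organoid and 11.5-fold lower on o-organoid than on crypt. Among other peptides, Penk, the enkephalin precursor, was at least 9.10-fold and Nmu, neuromedin U, at least 6.54-fold lower on crypt than on intestine. Kitl, the ligand of Kit, was measured on all 4 arrays, with -0.40, -0.54, 0.13 and -1.19.

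Counts of crypt against intestine for further neuronal and glial lists stand against the same 14.3% lower and 6.83% higher of all genes. Of the list of neuronal identity 3 of 8 measured genes were lower on crypt than on intestine. Among them were the adhesion molecule Ncam1 (at least 11.6-fold) and the vesicular acetylcholine transporter Slc18a3 (at least 3.61-fold). Ncam1 was measured on neither organoid, whereas Slc18a3 was measured on both. Its signals were -2.59 on intestine, -3.53 on y-organoid and -4.59 on o-organoid. On y-organoid Slc18a3 lay within 2-fold of intestine (a difference of -0.94), and on o-organoid it was lower than that. Elavl3 and Chat were above background nowhere. Of 13 measured synaptic genes 3 were lower and 1 was higher on crypt than on intestine, and each array measured 12 of the 18, though not all the same genes. Syp, synaptophysin, had 2.85, 2.90, 0.92 and 0.11 and was 3.96-fold lower on y-organoid and 6.94-fold lower on o-organoid than on crypt. Of 13 measured synaptic genes, Syp was the 1 lower on y-organoid than on crypt (13.3% of all genes), whereas 3 were higher (18.5%). Stx1a, a syntaxin of the fusion machinery, was 5.05-fold higher on y-organoid and 4.0-fold on o-organoid than on crypt, and Vamp1, a synaptobrevin, 4.22-fold and 3.20-fold. Of 5 measured glial genes 3 were lower on crypt than on intestine, among them Fabp7 (at least 2.69-fold). Of 6 measured pacemaker genes 4 were lower on crypt, among them Etv1 (3.98-fold).

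**Figure D5:**
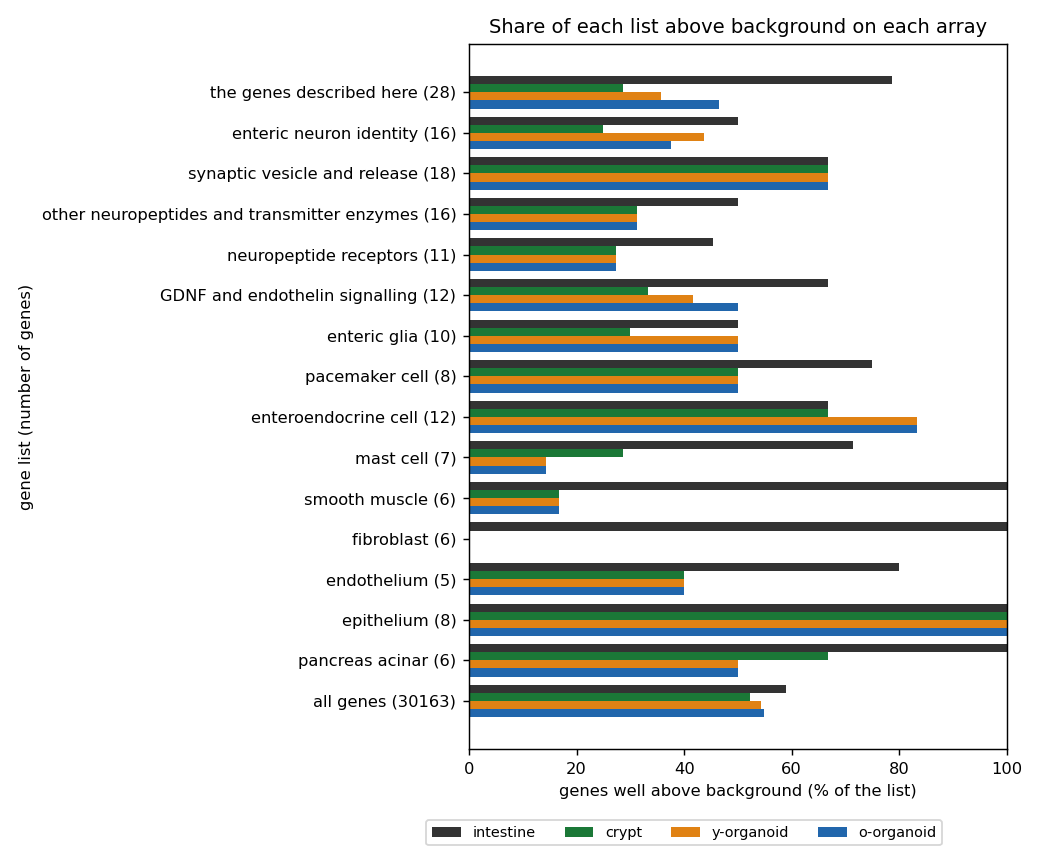
Share of the genes of each list that were well above background on each array, with the number of genes in the list in parentheses and all 30163 genes at the foot. The 28 genes fall from 22 on intestine to 8 on crypt, whereas the synaptic list has 12 of 18 genes on each array and the fibroblast list none outside intestine.

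Markers of other cells did not all move with the intestine array. All 6 smooth muscle and all 6 fibroblast markers were measured on intestine. On crypt and on each organoid 1 smooth muscle marker, Tagln, and no fibroblast marker was. The summed signal of the muscle list, in units of the 75th percentile intensity, was 85.8 on intestine and 0.33 to 0.54 elsewhere, and that of 6 pancreatic acinar genes was 5088 against 0.52 to 1.30. On intestine the acinar sum was thus above that of the 8 epithelial markers (599). Every comparison with intestine, that of Gal included, uses this RNA. Epithelial markers were measured on all arrays (8 of 8, summed signal 554 to 768). Endothelial markers were measured for 4 of 5 on intestine and for 2 on each other array. Their summed signals were 7.49 on intestine, 4.43 on crypt, 7.83 on y-organoid and 2.24 on o-organoid. These sums mostly read Kdr, the brightest of them, with log2 signals of 2.79, 2.11, 2.94 and 1.11 in the same order. Pecam1 had -2.65, -3.65, -3.15 and -3.86. Cdh5 and Tie1 were measured on intestine alone. They were at least 4.59- and 4.05-fold lower on crypt, and at least 3.67- and 3.23-fold lower on y-organoid. Tek was above background nowhere. Mast cell markers, relevant to Kit, were measured for 5 of 7 on intestine, 2 on crypt and 1 on each organoid (summed signal 0.91, 0.33, 0.63 and 0.38), and on o-organoid only Tpsb2 was. Enteroendocrine markers, relevant to Tac1 and Scg2, were measured for 8 of 12 on intestine and crypt and 10 of 12 on each organoid, with a summed signal of 39.2 on intestine and 64.4 to 81.7 elsewhere. Xist was measured on intestine alone and the Y-linked genes Eif2s3y and Ddx3y on the other 3 arrays, so sex and animal cannot be told apart from tissue. The part of these cell types in the values of the 28 genes was not tested.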

How the data were processed

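Cy3-labelled RNA of each sample was hybridised to 1 Agilent array, per the labels' protocols. Spot intensity in the deposited scanner files is background-subtracted and detrended by Feature Extraction 10.7.3.1, per the file headers. A deposited value table holds a ratio, the processed intensity over 1 constant (the median) per array.

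On each array 1377 control spots and outlier-marked spots were left out (162, 108, 154 and 165 outliers on intestine, crypt, y-organoid and o-organoid), and no spot was saturated. Deposited intensities were put on the log2 scale relative to the 75th percentile (386, 469, 281 and 641). Spots of a probe were averaged, a probe was measured if the majority of its spots were, and a gene was read by its brightest probe. All genes and probes were named as in the files. The choice of the 28 genes, the context lists and the tests was made with earlier results of these data known. All 28 genes are named. Of each context list, up to 4 genes with the largest difference between crypt and intestine and up to 4 between each organoid and crypt could be named. Other genes were chosen after their values were seen. A few listed genes are not reported here. Of the 14 context lists, Map2 and Npy4r were not matched. One list, pancreas acinar, and 3 of the 11 alternatives were added after the files were seen. Python 3.11.15, pandas 2.3.3 and limma 3.58.1 (R 4.3.3) were used.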

Additional observations from a re-analysis of the deposited data

How the results depend on the processing

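Of the differences past 2-fold, 8 of 15 for crypt, 4 of 12 for y-organoid and 13 of 18 for o-organoid against intestine stayed past 2-fold in all 11 alternatives, Vip, Gal and Prph among them each time, as did 2 of 4, 1 of 3 and 1 of 6 for y-organoid against crypt, o-organoid against crypt and o-organoid against y-organoid. None changed sign. In the next settings the 28 genes had values for 22 (crypt) and 23 (y-organoid) against intestine. They had values for 10 and 13 against crypt and 13 between the organoids. With normexp, which adds an offset of 50 and compresses dim signals, 8 genes were lower on crypt and 3 on y-organoid than on intestine, 0 were higher on crypt, and 2 (y-organoid) and 1 (o-organoid) were higher than on crypt. All genes then had, in the same order, 1594 of 18212, 2405 of 18758, 635 of 18212, 1853 of 17197 and 770 of 17202. Quantile normalization gave 0 genes higher on crypt than on intestine (2275 of 18210 of all genes) and 2 higher on o-organoid than on y-organoid (1813 of 17307). The deposited scaling moved the median of all genes for crypt minus intestine from 0.06 to 0.84. It gave 2 genes higher on y-organoid than on intestine, 2 higher on y-organoid than on crypt, and 2 higher and 1 lower between the organoids. All genes then had, in the same order, 5266 of 18760, 1576 of 17206, and 4364 and 1108 of 17306. Centring on epithelial genes gave 0 higher on crypt and 3 on y-organoid against intestine, 9 higher on y-organoid and 5 higher and 0 lower on o-organoid against crypt, and 8 lower between the organoids. All genes then had, in the same order, 409 of 18213, 5779 of 18760, 7773 of 17206, 3641 and 1292 of 17209, and 4704 of 17306.

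The looser mark of a positive spot (gIsPosAndSignif) raised measured genes to 18 on crypt and 20 on y-organoid. It and no filter on dim probes each gave 2 genes higher on crypt and 2 on y-organoid than on intestine, 4 higher and 3 lower on o-organoid than on crypt, and 3 higher and 10 lower between the organoids. With no filter all 28 genes had a value, and with the looser mark 28, 28, 19 and 21 did. All genes with no filter had 2009, 5541, 2343 and 3839, and 1739 and 6248 of 30163. With the looser mark they had 2007 of 25120, 5540 of 25464, 2343 and 3838 of 24511, and 1739 and 6245 of 24686. With any spot sufficing, the counts were 2 higher on crypt and 2 on y-organoid against intestine, 4 higher on o-organoid than on crypt and 3 between the organoids. These were of 23, 23, 13 and 13 genes, and all genes had 1418 of 18244, 4171 of 18786, 1913 of 17244 and 1629 of 17333. Without probes with CA or TG runs (18 or 10 bases) no gene was lower on o-organoid than on crypt (0 of 12 or 11). All genes then had 2320 of 17151 or 2315 of 17071 lower. The cause of the other changes was not tested. No paired analysis was possible because each group has 1 array. Bounds end at the lowest measured signal, and precision is limited by the number of arrays.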
